A study of Mus musculus with 4 samples.

Results

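Macrophages of the gut are replaced by blood monocytes, and cells on this path find and keep their place through receptors for chemoattractants and for colony stimulating factors (CSFs). The genes described here were 9 such receptors, chosen by name from the 12596 genes of the table. They comprise the chemokine receptors Ccr1, Ccr2, Cx3cr1 and Cxcr4, the atypical chemokine receptor Ccrl2, the anaphylatoxin receptors C5ar1 and C3ar1, and the growth factor receptors Csf1r and Csf2ra. All 9 were in the table and all 9 passed the filter on low counts in every comparison.

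CCR2 binds CCL2 and related chemokines and takes monocytes out of the bone marrow and into inflamed tissue, whereas CX3CR1, the receptor of membrane-bound fractalkine, is a hallmark of resident macrophages of the gut. C5AR1 and C3AR1 bind the small fragments released when complement is activated, and CSF1R carries the survival signal on which most tissue macrophages depend. As monocytes mature in the gut wall they lose Ly6C and CCR2 and gain complement C1q, so that the C1q share of a cell's RNA can order cells between both ends.

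Sorted cells of the lamina propria of the colon, positive for CD11b and for Ly6C, CD64 or both, came from 4 male wild-type mice on the C57/Bl6N background, whose age was not given in the sources used here. The mice formed 2 groups of 2. DEP mice 14 and 15 had received 12 µg of diesel exhaust particles (DEP, soot of diesel engines) in 200 µL of PBS by gavage 5 days per week for about 6 months, and PBS mice 2 and 3 had received PBS alone. All mice were sorted in a single batch and each was loaded on its own well of a droplet device, so that well and mouse cannot be told apart. The assay counts unique molecular identifiers (UMIs), which stand for RNA molecules. Of 943 deposited cells, 868 were kept, namely 175 and 299 of the DEP mice and 188 and 206 of the PBS mice, with 679800 to 1144961 UMIs per mouse and a median of 2725.5 to 4620 UMIs per cell. The 75 cells left out had UMIs of 3 or more markers of 1 other class of cells, and 58 of them were B or plasma cell-like. Among the 58, 44 had a C1q share of 0.3% or more, with a median of 6054 UMIs. Csf1r was found in 86.4% and C5ar1 in 81.8% of those 44, against 87.3% and 81.9% of kept cells with C1q above 1%. Whether the 44 were B or plasma cells or macrophages was not tested. A single barcode occurred in more than 1 library (2 cells).

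The cells were placed in 3 bins by the summed share of C1qa, C1qb and C1qc among their UMIs. The bins held 141 cells under 0.3%, 58 cells from 0.3 to 1% and 669 cells above 1%. They are ranges of a score measured in the same cells and not cell types. In all, 11 cells lay between 0.2 and 0.5%, and 74 cells between 0.8 and 1.2%. The median cell held 3159, 2646.5 and 4065 UMIs in the 3 bins.

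The labelled cell type, monocytes and macrophages, was checked against markers that are not part of the score. The monocyte markers Ly6c2 and Plac8 were at 566 to 1041 and 3540 to 5728 CPM (UMIs scaled to a common library size) under 0.3%, and at 4.46 to 36.7 and 74.3 to 108 CPM above 1%. A list of 11 monocyte markers, one of which is Ccr2, took a median of 5.55%, 1.56% and 1.42% of a cell's UMIs from the lowest to the highest bin, and 10 macrophage markers other than C1q took 0.434%, 2.04% and 4.48%. The low end thus carried monocyte markers and the high end macrophage markers. Markers of dendritic cells (7 of 10 listed were in the table) summed to 0 to 349 CPM per mouse under 0.3%, where Clec9a and Fscn1 were at 0, and to 27.9 to 56.5 CPM above 1%. Neutrophil markers (4 of 10) summed to 89.9 to 167 CPM and 36.0 to 51.3 CPM in the same bins, and B or plasma cell markers (13 of 13) to 169 to 278 CPM and 300.4 to 351 CPM. The part of these cells in the results was not tested. All fits were also run without cells carrying dendritic markers, and calls of the 9 receptors that this ended are given beside them.

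The mouse was the replicate. UMIs were summed per mouse and bin into 12 libraries and tested with edgeR's quasi-likelihood test with Benjamini-Hochberg adjustment over all genes, with the mouse as a block between bins. Fold changes are on the log2 scale with their standard error. A difference was called at an adjusted p under 0.05. In the fits between bins, in the test of whether the DEP effect differed between bins and in DEP against PBS from 0.3 to 1%, edgeR found next to no variation in spread between genes beyond chance, so that in effect every gene shared 1 estimate, and a gene with a larger spread between mice than most is then called too easily.

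Most of the 9 receptors rose along the C1q share, and Ccr2 alone was called lower. Between the bins above 1% and under 0.3%, 7 of the 9 receptors were called, 6 higher and 1 lower, against 18.7% of all 5484 genes tested (1027 genes). C3ar1, C5ar1, Cx3cr1, Cxcr4, Csf1r and Ccr1 rose and Ccr2 fell, while Ccrl2 and Csf2ra did not pass the test. The median of the 9 log2 differences was 1.06, that of all genes 0.05. With libraries scaled to their size alone, without TMM factors, the median of all genes was -0.17, and the 1027 calls (561 higher, 466 lower) became 442 higher and 816 lower. The 7 called receptors kept their direction under that scaling.

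**Figure D1:**
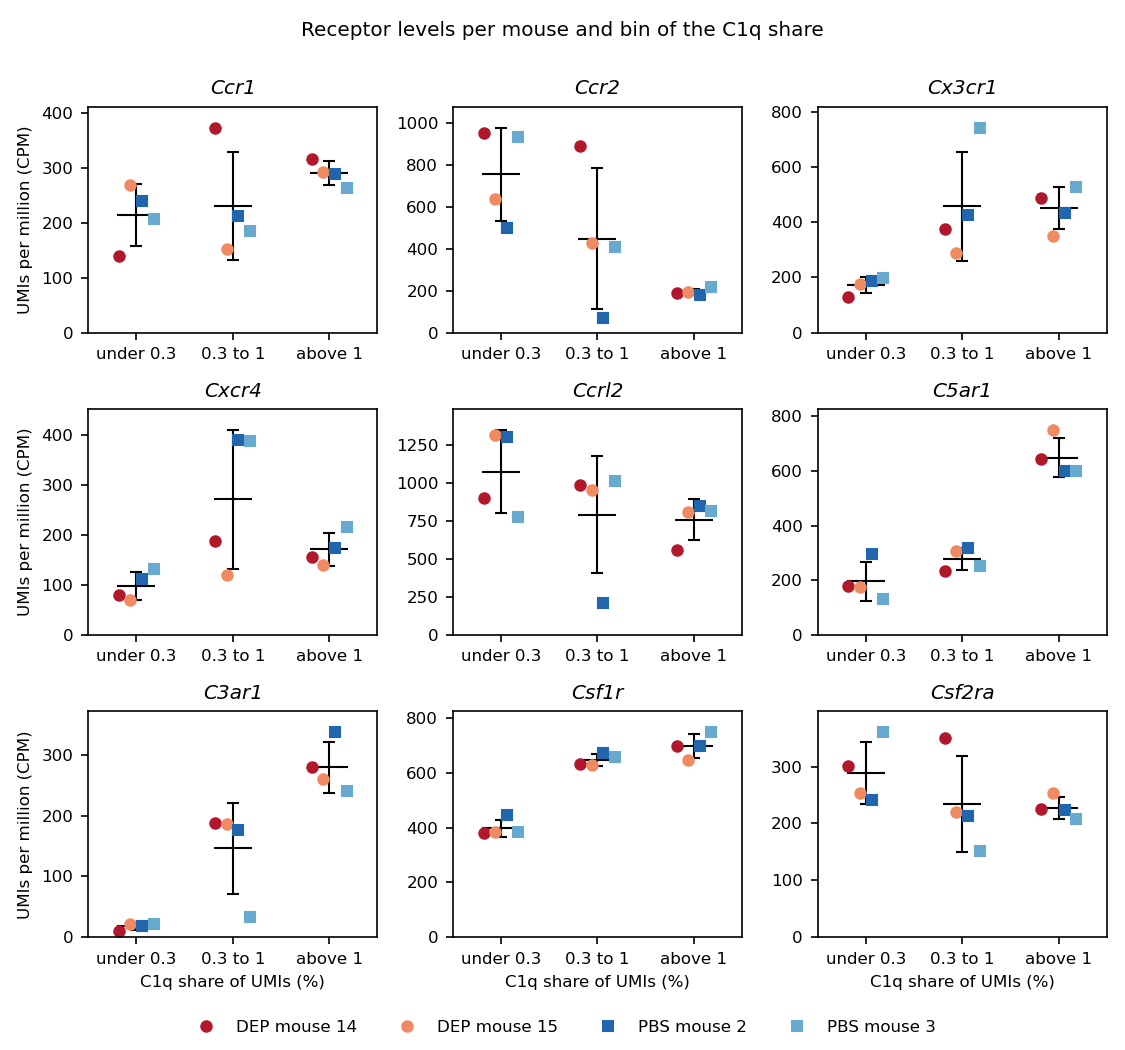
Level of each receptor (CPM, vertical axis from 0, scale per panel) against the bin of the C1q share, with 1 point per mouse (circles DEP, squares PBS) and the mean ± SD of 4 mice in black. The 4 mice of Ccr2 lie between 500.4 and 951 CPM under 0.3% and between 181 and 216 CPM above 1%, and those of C3ar1 go from 10.0–21.9 to 240.3–338 CPM.

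Ccr2, the receptor that brings monocytes into tissue, was the only member called lower. Under 0.3% it stood at 951 and 635 CPM in DEP mice 14 and 15 and at 500.4 and 929.9 CPM in PBS mice 2 and 3. From 0.3 to 1% the same mice had 889, 424, 70.8 and 405 CPM, and above 1% they had 188, 194, 181 and 216 CPM. Every mouse of the high bin was below every mouse of the low bin, and the mice were widely spread in between, where mouse 2 had 2 UMIs and the others 24 to 38. Between the outer bins Ccr2 fell by 1.67 on the log2 scale (SE 0.18, adjusted p = 4.11e-18). It fell by 0.78 in the first step (adjusted p = 0.0110) and by 0.88 in the second (adjusted p = 0.00471), but both calls depended on single mice and on the processing. In the first step the adjusted p was 0.0518 without DEP mouse 15, 0.0764 without PBS mouse 2 and 0.244 without PBS mouse 3. In the second it was 0.683 without DEP mouse 14 and 0.118 without DEP mouse 15. Without the mouse as a block the adjusted p was 0.118 for the first step and 0.0567 for the second. The first step was also lost with all deposited cells (-0.47, adjusted p = 0.278), without cells carrying dendritic markers (adjusted p = 0.111), with DESeq2 (0.243) and in thinned cells (0.162). The second was lost without a filter on low counts (-0.58, adjusted p = 0.253), with limits of the bins at 0.2 and 0.8% (0.133) or 0.5 and 1.5% (-0.54, adjusted p = 0.227), with cells of 2000 UMIs or more (0.168), with DESeq2 (0.0550) and in thinned cells (0.268). The call between the outer bins was kept in all alternatives.

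Cx3cr1, the fractalkine receptor, took the opposite course. Its level was 130.2, 175, 185 and 197 CPM in mice 14, 15, 2 and 3 under 0.3%. The intermediate bin had 374, 289, 425 and 743 CPM, and the high bin 489, 351, 435 and 527 CPM. Every mouse was thus higher already from 0.3 to 1% than any mouse below, and the upper bins overlapped. Cx3cr1 rose by 1.59 ± 0.22 between the outer bins (adjusted p = 5.93e-12) and by 1.31 in the first step (adjusted p = 6.06e-05; 0.0839 without PBS mouse 3). The second step of 0.28 was not called, and its sign changed when libraries were scaled to their size alone (-0.02).

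The ratio of Cx3cr1 to Ccr2 UMIs within a library sums up these opposite courses, and does not depend on how libraries are scaled. It was 0.137, 0.275, 0.370 and 0.212 in mice 14, 15, 2 and 3 under 0.3%. Above 1% it was 2.6015, 1.81, 2.41 and 2.43, and the mice of the bins were far apart. In the intermediate bin it was 0.421, 0.68, 6 and 1.83, where the 6 of mouse 2 stands on 12 and 2 UMIs.

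Cxcr4, the receptor of CXCL12 that holds leukocytes in bone marrow and tissue, had its highest mean level in the middle bin. The 4 mice had 80.1, 68.8, 111 and 131 CPM under 0.3%. They had 187, 119, 389.7 and 388 CPM from 0.3 to 1% and 155, 139, 174 and 215 CPM above 1%. All 4 mice rose in the first step, and 3 of 4 were lower again in the second. The rise was 1.35 in the first step (adjusted p = 0.00312; 0.118 without PBS mouse 3 and 0.314 in thinned cells) and 1.08 ± 0.27 between the outer bins (adjusted p = 0.000633), and the second step of -0.28 was not called. That second step changed sign without a filter on low counts (0.023) and in thinned cells (0.0048). When each cell was thinned to 1000 UMIs, which leaves fewer counts, the rise between the outer bins was 1.05 with an adjusted p of 0.0707. The intermediate libraries of PBS mice 2 and 3, where Cxcr4 was highest, also had the highest median share of mitochondrial UMIs per cell, 3.98% and 3.89% against 1.41% to 2.48% in the other libraries of mouse and bin. The part of this share in the levels of Cxcr4 and Cx3cr1 was not tested.

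Ccr1, a receptor of CCL3, CCL5 and several further inflammatory chemokines, changed little. Its levels were 140.2, 269.7, 241 and 208 CPM in the lowest bin, 374, 153, 213 and 186 CPM in the next and 318, 293, 289 and 263 CPM in the highest. Each mouse was higher above 1% than under 0.3%, but the ranges of the mice touched. The rise of 0.65 ± 0.21 was called (adjusted p = 0.0157) and was the least certain of the 7. It lost its call without DEP mouse 14 (0.52, adjusted p = 0.140), with scaling by library size alone (0.41, adjusted p = 0.156), in thinned cells (0.27, adjusted p = 0.583) and without cells carrying dendritic markers (0.57, adjusted p = 0.0746).

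Ccrl2 binds chemerin without signalling and presents it to other cells. It was at 901, 1317, 1297 and 777 CPM under 0.3%. The same mice had 983, 951, 213 and 1013 CPM from 0.3 to 1% and 555, 805, 850.0 and 817 CPM above 1%. The ranges overlapped in all bins, and 1 of 4 mice was higher in the highest than in the lowest bin. The difference of -0.24 was not called (adjusted p = 0.337, 95% interval -0.56 to 0.07), whereas scaling by library size alone gave -0.50 with an adjusted p of 0.00785.

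C5ar1 and C3ar1, the receptors of the complement fragments C5a and C3a, rose the most. C5ar1 was at 180.2, 175, 297 and 131 CPM under 0.3% and still at 234, 306, 319 and 253 CPM from 0.3 to 1%. Above 1% it reached 645, 751, 599 and 599.7 CPM. The groups of the lower bins overlapped, and the highest bin lay apart from both. The first step of 0.53 was not called (adjusted p = 0.355), the second of 1.54 was (adjusted p = 7.25e-09), and the sum was 2.07 ± 0.21 (adjusted p = 4.75e-21). With the bins divided at 0.5 and 1.5% in place of 0.3 and 1%, C5ar1 was called in the first step (1.73, adjusted p = 2.87e-08). The second step of 0.52 was then not called (adjusted p = 0.0549). Which step of C5ar1 was called thus depended on the limits of the bins.

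C3ar1 was almost absent from cells with little C1q. The 4 libraries under 0.3% held 1, 4, 1 and 2 UMIs, or 10.0, 21.2, 18.5 and 21.9 CPM. From 0.3 to 1% they held 8, 11, 5 and 2 UMIs, or 187, 187, 177 and 33.8 CPM, and above 1% 281, 261, 338 and 240.3 CPM. The 3 bins rose in order in each mouse. Summed over mice, 855 UMIs above 1% against 8 under 0.3% gave a ratio of 14.9 per UMI sequenced (95% interval 7.52 to 34.6, counting error only). The fitted difference was 4.10 ± 0.36 (adjusted p = 2.30e-27), with 2.81 in the first step (adjusted p = 1.41e-05) and 1.29 in the second (adjusted p = 0.000861; 0.0551 without PBS mouse 3, and 0.67 with an adjusted p of 0.409 in thinned cells).

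Csf1r, the receptor of CSF1 and IL-34, was steady between mice and rose by degrees. Its levels were 381, 386, 445 and 383 CPM under 0.3%, 632, 628, 673 and 659 CPM from 0.3 to 1% and 700.5, 647, 699 and 750.5 CPM above 1%. All 4 mice rose at each step. The rise of 1.06 ± 0.18 between the outer bins was called (adjusted p = 1.26e-07). Neither step reached the threshold, at 0.64 for the first (adjusted p = 0.0577) and 0.42 for the second (adjusted p = 0.308). Which step passed depended on the processing. The first was called with scaling by library size alone (adjusted p = 0.0234), DESeq2 (0.00107), all deposited cells (0.00636), limits of 0.5 and 1.5% (0.94, adjusted p = 8.91e-06) and a robust fit, in which genes with a large spread keep it (0.0454), and the second without a filter on low counts (0.72, adjusted p = 0.0209) and with limits of 0.2 and 0.8% (0.74, adjusted p = 0.0302).

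Csf2ra, the ligand-binding chain of the GM-CSF receptor, was at 300.4, 254, 241 and 361 CPM under 0.3%. It had 351, 221, 213 and 152 CPM from 0.3 to 1% and 226, 254, 224 and 208 CPM above 1%. The bins overlapped throughout. The difference between the outer bins was -0.09 (adjusted p = 0.832), with a 95% interval of -0.50 to 0.31.

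**Figure D2:**
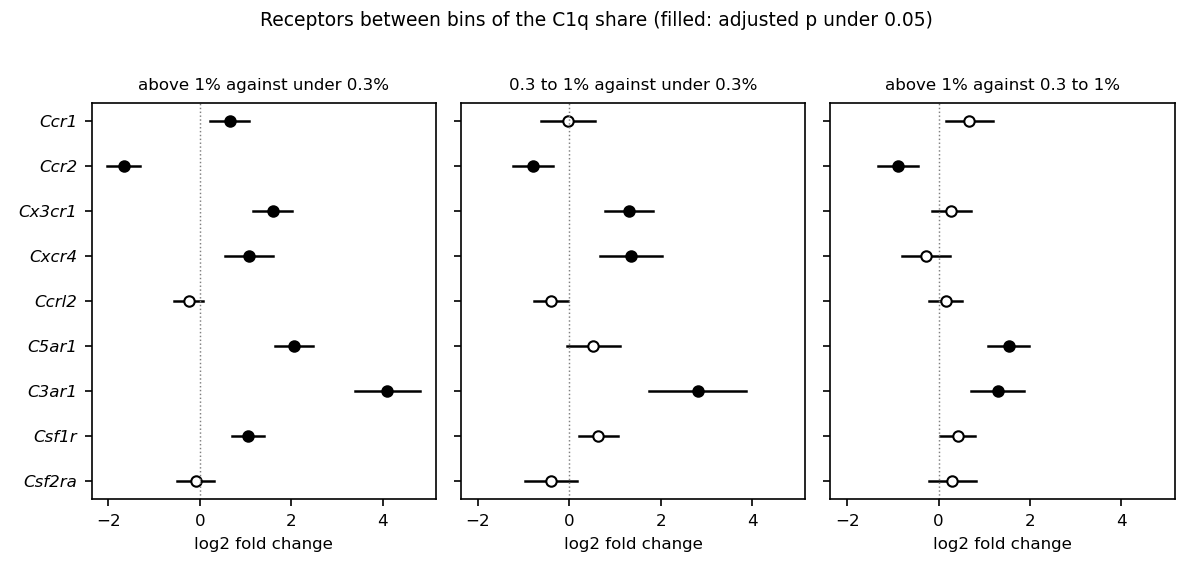
Log2 fold change of each receptor between bins of the C1q share (horizontal axis, same scale in all panels), with 95% intervals as lines and filled circles for an adjusted p under 0.05. Cx3cr1 and Cxcr4 are filled in the first step (middle panel), C5ar1 in the second (right panel), and Ccr2 and C3ar1 in both.

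By step, 4 of 9 receptors were called from under 0.3% to 0.3 to 1%, against 6.47% of all genes tested (355 genes), and 3 of 9 from there to above 1%, against 3.39% (186 genes). Cx3cr1 and Cxcr4 passed the test in the first step only and C5ar1 in the second only; the difference between the steps was not tested. The median of all genes was -0.17 in the first step and 0.21 in the second, and -0.11 and -0.08 with scaling by library size alone, against receptor medians of 0.53 and 0.30. The direction of the calls over all genes moved with the scaling as well. The first step had 147 higher and 208 lower calls and 185 higher and 109 lower with DESeq2, and the second 133 higher and 53 lower and, with library size alone, 57 higher and 136 lower.

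Within the bin above 1% the levels kept shifting in part. Cells with a C1q share of 1 to 2% (434 cells) and of 2 to 3% (225 cells) had 252 and 330.1 CPM of C3ar1, 614 and 711 CPM of C5ar1 and 262 and 344 CPM of Ccr1, as means of 4 mice. Cxcr4 was at 201 and 124 CPM in these cells, Ccr2 at 211 and 177 CPM and Csf1r at 675 and 731 CPM. Cx3cr1 stayed at 448 and 469 CPM. These steps were not tested.

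A receptor's level in a summed library can come from many cells or from a few. The share of cells with a UMI was therefore counted after thinning each cell to 1000 UMIs, a depth that every cell reached. In the order of the bins, Ccr2 was found in 47.5%, 29.3% and 15.5% of cells. The anaphylatoxin receptors went the other way, with 17.0%, 15.5% and 46.0% for C5ar1 and 2.13%, 22.4% and 25.6% for C3ar1. For Cx3cr1 the shares were 16.3%, 32.8% and 30.0%, for Cxcr4 7.80%, 20.7% and 14.3%, and for Csf1r 28.4%, 46.6% and 48.6%. The other members differed less, with 20.6%, 13.8% and 23.0% for Ccr1, 49.6%, 32.8% and 45.6% for Ccrl2 and 22.7%, 19.0% and 16.7% for Csf2ra. Shares and levels thus moved alike, except where the intervals of the bin with 58 cells were wide.

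**Figure D3:**
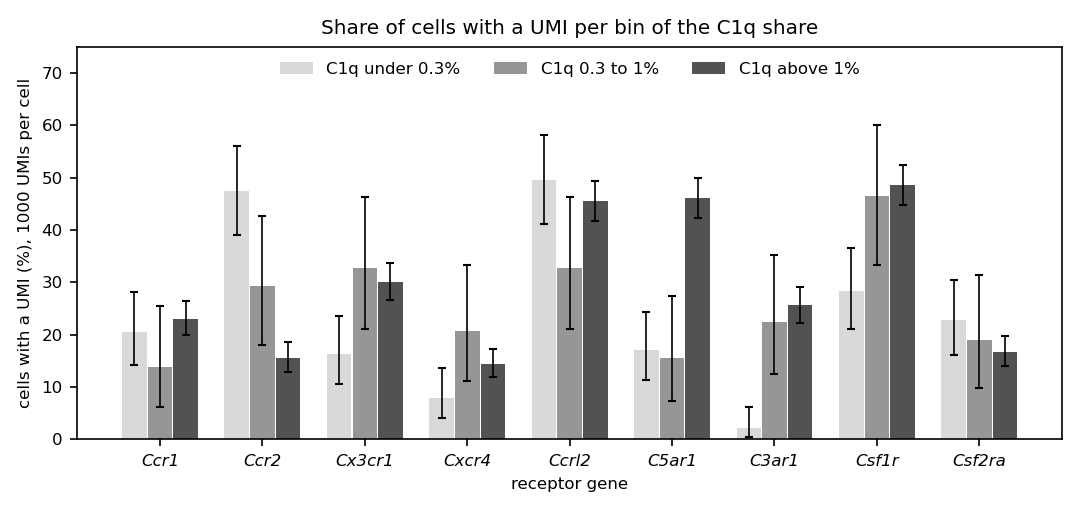
Share of cells with at least 1 UMI of each receptor (vertical axis, percent) after thinning to 1000 UMIs per cell, in the 3 bins of the C1q share (141, 58 and 669 cells), with exact binomial 95% intervals that cover counting error only. Ccr2 goes from 47.5% down to 15.5%, and C5ar1 stands apart above 1%, at 46.0%.

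Free RNA in droplets can add UMIs to cells that do not express a gene. In 14 B or plasma cell-like cells with C1q under 0.3% (median 2544 UMIs, before thinning), which should lack most of these receptors, C5ar1 and C3ar1 were found in 0 of 14, which allows a share of up to 23.2% by the exact binomial interval. Cx3cr1 was found in 7.14%, Ccr1, Ccr2 and Csf1r in 14.3% and Cxcr4, Ccrl2 and Csf2ra in 21.4% of them. The corresponding shares before thinning in the 141 cells under 0.3% were 34.0% for Cx3cr1, 73.8% for Ccr2, 21.3% for Cxcr4 and 68.8% for Ccrl2. Before thinning, the share of Cxcr4 at the monocyte end was thus no higher than in those B or plasma cell-like cells, which themselves can express Cxcr4. After thinning, Ccr2 was found in 14.3% of those 14 cells and in 15.5% of the cells above 1%. Its level was 38.0 CPM (3 UMIs) in the 14 cells and 197 CPM (613 UMIs) above 1%. How much of the Ccr2 above 1% was free RNA was not tested. C3ar1 under 0.3%, with 8 UMIs in 141 cells, was near the lowest level that could be measured.

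After thinning, 0% to 21.1% of cells per mouse under 0.3% and 2.80% to 3.77% above 1% had no UMI of any member. A cell had a mean of 2.05 to 2.30 different members per mouse under 0.3% and of 2.61 to 2.74 above 1%. UMIs of Ccr2 were gathered in fewer cells than is usual for a gene of its count. The 43 cells with the most Ccr2 UMIs held 33.2% of them, whereas for genes of like total count the median was 22.4%. For Cx3cr1 the values were 29.0% and 20.8%, for Ccrl2 26.7% and 18.2%, for Cxcr4 32.2% and 25.9%, and for Csf1r 18.2% and 18.8%.

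Whether oral DEP changed the receptors was asked over all cells and within each bin. None of the 9 was called in any of these comparisons. Over all cells 0.0182% of the genes tested were called (1 of 5487, by edgeR, and 348 at an unadjusted p under 0.05, with 3 genes called by DESeq2). The gene was Plac8, a monocyte marker named after its value was seen (1.17, adjusted p = 0.00458). Without DEP mouse 14, DEP mouse 15, PBS mouse 2 and PBS mouse 3 in turn the count was 0, 10, 41 and 51 genes. In the bins 0.315% (14 genes), 0.288% (15 genes) and 0% (0 genes, with 280 at an unadjusted p under 0.05 and 1 called by DESeq2) of genes were called from the lowest to the highest C1q share. In the test of whether the DEP effect differed between the outer bins, 0.164% of genes (9 genes) and no receptor was called. At an unadjusted p under 0.05 stood 1 receptor over all cells (Cxcr4), 0 under 0.3%, 3 from 0.3 to 1% (Ccr2, Cx3cr1 and Cxcr4) and 1 above 1% (Cxcr4). Of all genes tested 348 of 5487, 277 of 4447, 284 of 5213 and 280 of 5676 stood there in the same order. In the sum over all cells, fewer cells of a kind and less RNA per cell cannot be told apart.

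The 2 DEP mice did lie on 1 side of both PBS mice for 4 receptors over all cells (Cxcr4, C5ar1, Csf1r and Csf2ra), against 36.5% of all genes tested (2005 of 5487), which is close to the share of the members. C5ar1 was at 570.1 and 633 CPM in DEP mice and 563 and 540.3 CPM in PBS mice, Csf2ra at 241 and 252 against 225 and 218 CPM, and Csf1r at 659 and 603 against 678 and 714 CPM. Their log2 differences were 0.11 (95% interval -0.20 to 0.41), 0.14 (-0.20 to 0.48) and -0.16 (-0.46 to 0.13). Ccr1 was at 299.8 and 282 against 282 and 254 CPM (0.10, -0.24 to 0.43), Ccrl2 at 617 and 897 against 859 and 825 CPM (-0.17, -0.53 to 0.20), and C3ar1 at 245 and 217 against 306 and 210.1 CPM (-0.17, -0.58 to 0.24). All 6 intervals stayed within a log2 difference of 1 in either direction.

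Cxcr4 had the largest difference of the 9 upon DEP. It was at 148 and 127 CPM in DEP mice and at 178 and 218 CPM in PBS mice, with a log2 difference of -0.56 ± 0.18 (unadjusted p = 0.00718, adjusted p = 0.755). Over the alternatives the adjusted p ranged from 0.172 to 1 and the difference kept its sign. Both DEP mice were below both PBS mice in each bin as well, though the bins come from the same 4 mice. Under 0.3% they were at 80.1 and 68.8 against 111 and 131 CPM (difference -0.71). From 0.3 to 1% they were at 187 and 119 against 389.7 and 388 CPM (-1.34, adjusted p = 0.533). Above 1% they were at 155 and 139 against 174 and 215 CPM (-0.41, adjusted p = 0.922). Within bins the groups were also apart, in either direction, for other members. These were Cx3cr1 under 0.3%, Ccr2, Cx3cr1, C3ar1, Csf1r and Csf2ra from 0.3 to 1%, and Ccr1, Ccrl2, C5ar1 and Csf2ra above 1%. The share of all genes set apart in this way was not counted within bins. With all mice given the same share of each bin, the Cxcr4 difference was -0.51. In thinned cells Cxcr4 was found in 11.4% ± 0.918 of DEP cells and 16.7% ± 1.07 of PBS cells (SD, n = 2), a difference of -5.37 percentage points (exact two-sided permutation test, p = 0.333, the smallest that 2 against 2 mice allow). The difference was -3.24 points when the thinning was drawn with another seed and -10.7 points in unthinned cells. The result does not pass a test, and mitochondrial UMIs were also lower in both DEP than in both PBS mice in the intermediate bin, at a median of 2.48% and 1.91% against 3.98% and 3.89%.

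**Figure D4:**
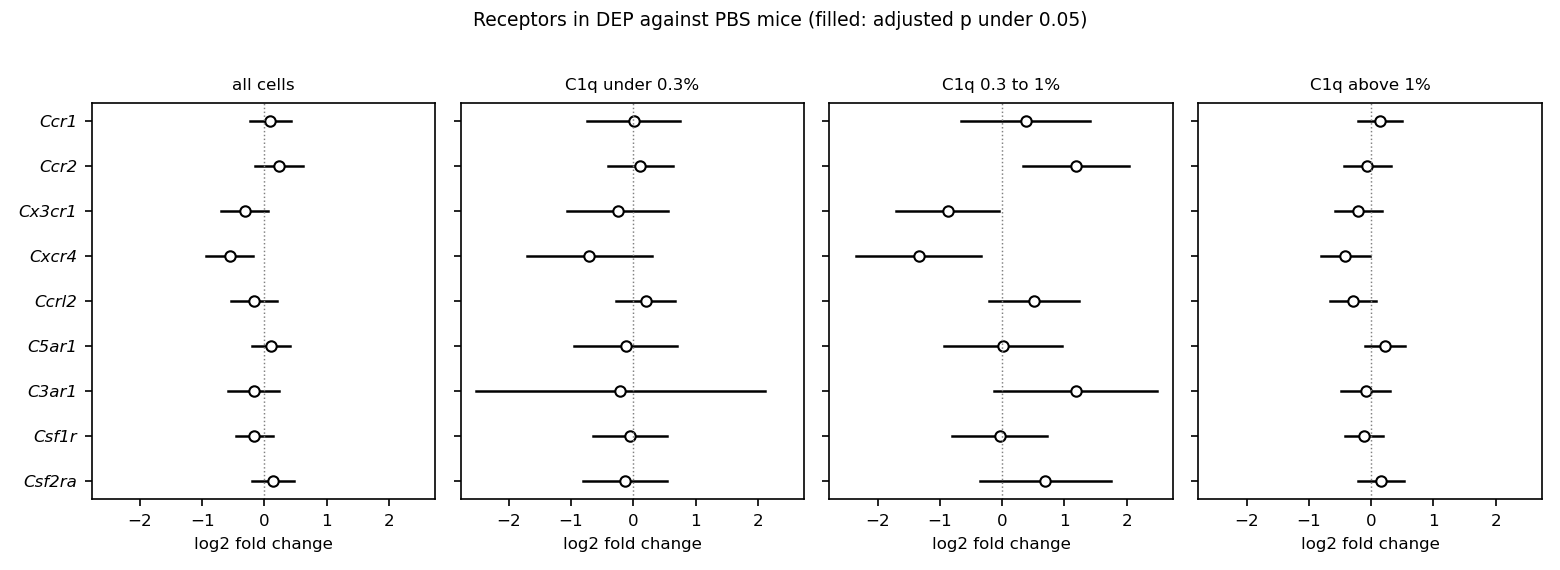
Log2 fold change of each receptor in DEP against PBS mice (horizontal axis, same scale in all panels) over all cells and in each bin of the C1q share, with 95% intervals as lines; a filled circle would mark an adjusted p under 0.05, and none is filled. Cxcr4 lies left of 0 in all panels, from -1.34 to -0.41.

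Ccr2 was at 313 and 279 CPM in DEP mice and 202 and 288 CPM in PBS mice over all cells, with a difference of 0.24 ± 0.18 (adjusted p = 0.889). The share of cells at the monocyte end lay higher in both DEP mice. Under 0.3% C1q lay 17.1% and 22.1% of the cells of DEP mice and 10.1% and 12.6% of those of PBS mice (19.6% ± 3.49 against 11.4% ± 1.78, SD, n = 2). The difference of 8.24 percentage points had p = 0.333 in the exact two-sided permutation test. With the same share of each bin in all mice the Ccr2 difference was -0.03. Within the bins it was 0.12 under 0.3% and -0.06 above 1%. From 0.3 to 1% it was 1.19 (adjusted p = 0.482), and 3.27 (adjusted p = 0.0173) without PBS mouse 3, when it rested on the 2 UMIs of PBS mouse 2. The monocyte markers Ly6c2, Plac8 and Ms4a4c, named here after their values were seen, were called higher upon DEP in that intermediate bin (5.09, 2.23 and 2.21, adjusted p = 1.38e-06, 6.29e-06 and 0.00155). No gene was called in that comparison with DESeq2, with limits of 0.2 and 0.8% or without cells carrying dendritic markers (66, 176 and 180 genes at an unadjusted p under 0.05).

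Cx3cr1 was at 441 and 319 CPM in DEP mice and 415 and 510.3 CPM in PBS mice, which overlapped (-0.31 ± 0.18, adjusted p = 0.828). Its difference was -0.25 under 0.3%, -0.88 from 0.3 to 1% (adjusted p = 0.880) and -0.20 above 1%. Ccrl2 differed by 0.20 under 0.3% and by -0.29 above 1%, and the difference of these effects was -0.58 (unadjusted p = 0.0339, adjusted p = 1). In thinned cells Csf2ra was found in 21.4% of DEP and 14.2% of PBS cells, 7.26 percentage points more (exact permutation test, p = 0.333) and 3.62 points more with another seed of the thinning, and the other 7 members differed by -3.17 to 3.90 percentage points (p of at least 0.667). Neither Csf2ra nor Cxcr4 can reach a lower p with 4 mice.

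Further receptors of the same families moved in both directions along the C1q share. Of 35 other chemoattractant receptors 23 were in the table and 11 were tested. Of these, 6 rose and 2 fell between the outer bins (median 0.97). Over all genes tested 18.7% were called between these bins, a share to be set beside the counts of this and the following lists. Ltb4r1, the receptor of leukotriene B4 that draws neutrophils and monocytes, fell from 90.1 to 204 CPM per mouse under 0.3% to 3.35 to 13.1 CPM above 1% (log2 difference -3.85 ± 0.39, adjusted p = 3.85e-21), and its first step of -2.76 was called too (adjusted p = 0.000733; 0.0543 without DEP mouse 15). P2ry6, a receptor of nucleotides released by dying cells, rose by 1.97 ± 0.30 (adjusted p = 1.99e-09). P2ry12, a further nucleotide receptor, had 1 UMI under 0.3% and 130 UMIs above 1%, or 1.32 and 42.5 CPM as means of 4 mice.

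The other receptors of growth factors and cytokines (12 listed, 10 tested) had 3 members that rose between the outer bins and none that fell (median 0.26). They were the TGF-β receptors Tgfbr1 and Tgfbr2, with 5 and 9 UMIs under 0.3% and 486 and 251 UMIs above 1%, and Il10rb, a chain of the IL-10 receptor, which rose by 1.21 ± 0.26 (adjusted p = 3.88e-05). IL-10 and TGF-β are known to restrain macrophages of the gut. By step these calls were less stable. Tgfbr1 was called higher in the first step, but not with DEP mouse 15 (1.52, adjusted p = 0.429) or mouse 2 of the PBS group (2.42, 0.0595) left out. Tgfbr1 and Il10rb were called higher in the second, and lost this call in 7 and 8 alternatives, among them library size alone (adjusted p = 0.117 and 0.207), DESeq2 (0.0879 and 0.0615) and DEP mouse 14 or PBS mouse 3 left out (0.255 and 0.134 for Tgfbr1, 0.0716 and 0.0883 for Il10rb). Il10rb lost it without PBS mouse 2 as well (adjusted p = 0.111).

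RNA of ligands of these receptors was found in the same cells, with calls in both directions along the C1q share. Of 18 listed ligands 14 were in the table and 10 were tested, with 4 higher and 4 lower calls between the outer bins (median 0.14). The CCR2 ligands Ccl7, Ccl8 and Ccl12 were at the macrophage end, where Ccr2 itself was low. Ccl7 went from 50.1, 555, 37.1 and 32.8 CPM in mice 14, 15, 2 and 3 under 0.3% to 1407, 1974, 1124 and 804 CPM above 1% (3.17 ± 0.20, adjusted p = 4.62e-52). Ccl8 had 20 UMIs and Ccl12 11 UMIs in all under 0.3% (0 to 89.9 and 0 to 52.9 CPM per mouse). Above 1% they were at 775 to 2858 and 648 to 1770.4 CPM per mouse. Ccl9 and Ccl6, ligands of CCR1, were at the monocyte end. Ccl9 was at 1142, 1079, 1798 and 1739 CPM under 0.3% and at 237, 415, 295 and 294 CPM above 1% (-1.95 ± 0.17, adjusted p = 5.26e-30). Ccl6 went from 1528 to 2374 CPM down to 213 to 842 CPM in the first step (-1.80 ± 0.20, adjusted p = 5.30e-17), and the mice of the bins did not overlap.

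**Figure D5:**
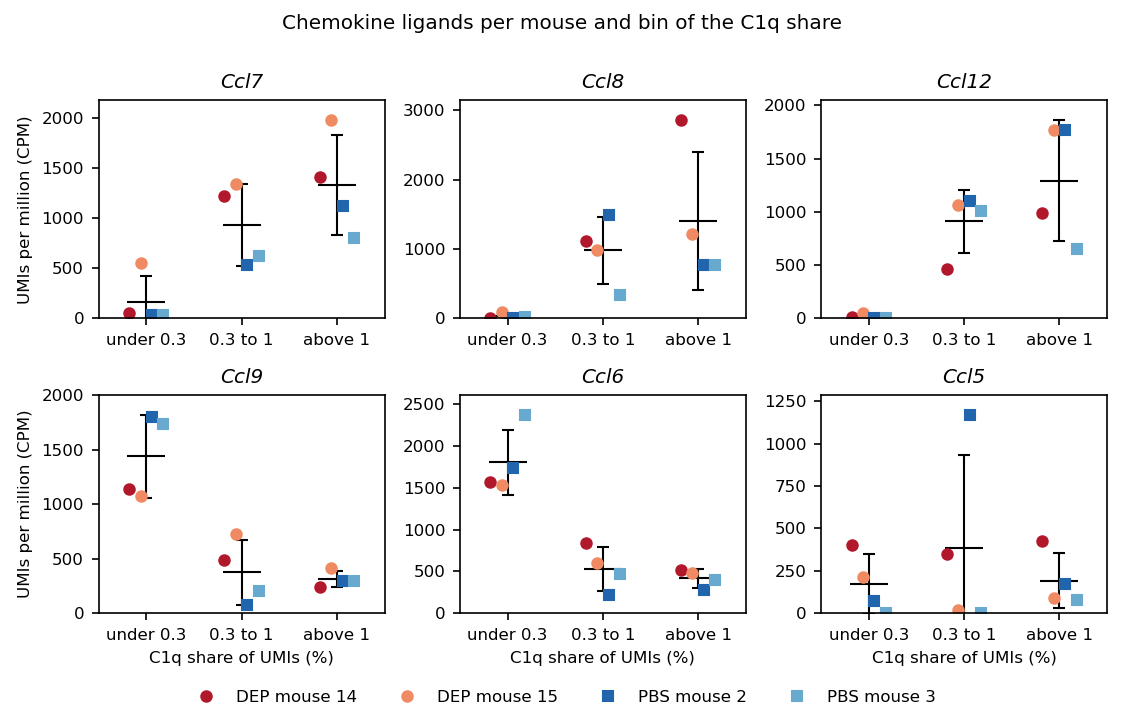
Level of 6 chemokine ligands (CPM, vertical axis from 0, scale per panel) against the bin of the C1q share, with 1 point per mouse (circles DEP, squares PBS) and the mean ± SD of 4 mice in black. Ccl7, Ccl8 and Ccl12 are low under 0.3% and Ccl6 and Ccl9 high, and Ccl5 is spread between mice in every bin.

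In the second step 6 ligands were called higher, among them Ccl7, Ccl8, Ccl3 and Ccl4, but with the bins divided at 0.5 and 1.5% the differences of these 4 were below 0, as that of Ccl4 also was in thinned cells. The call of Ccl7 was lost with DESeq2 (adjusted p = 0.580), no block (0.318) and the robust fit (0.590). Scaling by library size alone ended the calls of Ccl8, Ccl3 and Ccl4 too (adjusted p = 0.0948, 0.199 and 0.253), as did DESeq2 (0.716, 0.0736 and 0.0739). So did PBS mouse 2 left out for Ccl3 and Ccl4 (0.215 and 0.0757), DEP mouse 15 left out for Ccl4 (0.0928) and DEP mouse 14 left out for Ccl8 (0.286). Ligands were the only list with calls upon DEP within a bin. Under 0.3% 2 of 9 ligands tested were called, against 0.315% of all genes. From 0.3 to 1% it was 1 of 10, against 0.288%. Under 0.3% Ccl5 was at 400.5 and 212 CPM in DEP mice and 74.1 and 0 CPM in PBS mice (3.37, adjusted p = 0.00323) and Ccl7, given by mouse above, was called as well (3.29, adjusted p = 0.0122). The Ccl7 call rested on DEP mouse 15, without which the difference was 0.57 (adjusted p = 0.967), and the Ccl5 call was lost without PBS mouse 3 (2.04, adjusted p = 0.243). From 0.3 to 1% Ccl9 was at 491 and 730.1 against 70.8 and 203 CPM (2.003, adjusted p = 0.0113). The Ccl9 call was lost without cells carrying dendritic markers (1.90, adjusted p = 0.942), without DEP mouse 15 (1.61, adjusted p = 0.799) and without PBS mouse 2 (1.56, adjusted p = 0.307). None of these 3 was called by DESeq2.

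Signalling and desensitisation genes shared by these receptors (36 listed, 26 tested) had 6 higher and 3 lower calls between the outer bins (median 0.17). Rgs1, which turns off G proteins behind chemokine receptors, rose by 3.38 ± 0.18 (adjusted p = 2.26e-77), from 55.6 to 682 CPM up to 3630.0 to 5154 CPM. Rgs10 rose by 1.62 ± 0.20 (adjusted p = 6.56e-14), Arrb2, which takes activated receptors off the membrane, by 1.24 ± 0.25 (adjusted p = 1.15e-05), and Socs3, a brake on cytokine receptors, by 0.97 ± 0.17 (adjusted p = 1.26e-07). The G protein subunit Gnb2 and the motility GTPase Rac2 fell in the first step (-0.94 and -0.87, adjusted p = 0.00496 and 0.0117), while Rgs1 rose by 2.24 (adjusted p = 1.40e-29; 0.148 with the robust fit). Both falls lost their call without cells carrying dendritic markers (adjusted p = 0.0907 and 0.106) and without DEP mouse 15 (0.0723 and 0.172), that of Gnb2 also in thinned cells (0.190), and that of Rac2 also without PBS mouse 3 (0.208), with DESeq2 (0.0523), with limits of 0.2 and 0.8% (0.113) and with all deposited cells (-0.56, adjusted p = 0.161). Rgs1, Socs3 and Rgs10 were called higher in the second step. With limits of 0.5 and 1.5% this was lost by Rgs1 (0.15, adjusted p = 0.823), Socs3 (0.23, adjusted p = 0.589) and Rgs10 (0.30, adjusted p = 0.503), and Rgs1 lost it with DESeq2 (0.505) and the robust fit (0.527) and Rgs10 by library size alone (0.143), without DEP mouse 14 (0.173) and without DEP mouse 15 (0.0615).

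Of 19 transcription factors of monocytes and macrophages 18 were tested, and 5 rose and 4 fell between the outer bins (median 0.06). Nr4a1, a factor of patrolling monocytes, fell by 1.55 (SE 0.19, adjusted p = 4.00e-15). Maf and Cebpa had 7 and 4 UMIs under 0.3%, or 14.7 and 8.60 CPM as means of 4 mice. They were at 143 and 105 CPM from 0.3 to 1%, and at 97.2 and 64.2 CPM above 1% (306 and 201 UMIs). In the first step 3 factors rose and 3 fell, and in the second Jun and Fos were called higher. With scaling by library size alone neither was (0.37 and 0.21, adjusted p = 0.202 and 0.594), nor with limits of 0.5 and 1.5% (0.11 and 0.046, adjusted p = 0.796 and 0.932) or in thinned cells (adjusted p = 0.137 and 0.5004). Fos was lost with DESeq2 (0.0561), all deposited cells (0.0875), no block (0.162), DEP mouse 14 left out (0.0608) and PBS mouse 2 left out (0.41, adjusted p = 0.218) as well.

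The 9 genes lie apart from each other except on chromosome 9, which holds 4 of them (GRCm38, GENCODE annotation). Ccr1 (chr9:123962124-123968692, minus strand) and Ccr2 (chr9:124101950-124113557, plus strand) lie closest to each other of these 4. Ccr2 fell along the C1q share, and Ccr1 rose, with the least certain of the receptor calls. Cx3cr1 (chr9:119901616-120069879, minus strand) and Ccrl2 (chr9:111054486-111057519, minus strand) lie farther off. The others are Cxcr4 (chr1:128588199-128592293), C3ar1 (chr6:122847138-122856161), C5ar1 (chr7:16246743-16259540) and Csf2ra (chr19:61223957-61228429), all on the minus strand, and Csf1r. None shares exon bases with another gene on its strand.

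Stretches of the RefSeq promoter windows of C3ar1 and C5ar1, the members that rose most between the outer bins, are shown. Maf of the list above rose between these bins too (2.77). Maf rose by 2.92 in the first step, where the difference of C5ar1 was 0.53 and not called. C5ar1 rose by 1.54 in the second step. With the bins divided at 0.5 and 1.5%, C5ar1 was called in the first step (1.73). A part of Maf in the levels of either gene was not tested. RefSeq promoter windows (GRCm38.p6) were matched for 8 of the 9 members and were searched over 250 bases before the start, on both strands, for GAGGAA (core of the PU.1 site), TGCTGA (MAF half-site), TGANTCA (AP-1, the same on both strands) and TTGCNNAA (C/EBP). Shown is the stretch free of annotated exons, on the gene's strand and 5′ to 3′, with matches in capitals. They lie at chr6:122856162-122856407 for C3ar1 and chr7:16259339-16259512 for C5ar1, both on the minus strand.
C3ar1: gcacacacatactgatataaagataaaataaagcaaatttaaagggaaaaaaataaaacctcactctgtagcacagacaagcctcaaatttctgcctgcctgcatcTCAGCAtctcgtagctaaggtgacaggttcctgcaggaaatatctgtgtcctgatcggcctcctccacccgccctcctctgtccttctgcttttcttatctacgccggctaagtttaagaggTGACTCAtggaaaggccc
C5ar1: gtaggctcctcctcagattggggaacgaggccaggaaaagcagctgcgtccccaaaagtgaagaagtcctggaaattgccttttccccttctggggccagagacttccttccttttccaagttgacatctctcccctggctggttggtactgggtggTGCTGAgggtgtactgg
C3ar1 held TGCTGA on the opposite strand, read here as TCAGCA, 144 bases before the start, and TGACTCA 22 bases before it. C5ar1 held TGCTGA 17 bases before its RefSeq start. By the GENCODE annotation above, the stretch shown for C5ar1 lies within the gene (chr7:16246743-16259540, minus strand). There it comes after the annotated start and not before it. Of the 27025 promoter windows of the genome, 15.8% held TGCTGA, 6.87% TGANTCA, 23.1% GAGGAA and 9.55% TTGCNNAA. Such matches are common and describe the letters only. GAGGAA was found in Ccr1 and Csf2ra, and none of the other windows of the members held a match of these motifs.

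The genes whose levels followed each receptor most closely over the 12 libraries were named by the correlation of log2(CPM + 10) among 2231 genes with a mean of at least 50 CPM. The libraries share mice and differ in depth, so that r is a description. For Csf1r these genes were Ms4a7, Dab2 and Lpcat2 (r = 0.970, 0.970 and 0.967), of which Ms4a7 is a marker of macrophages, and for C3ar1 Fcrls, Tmem176a and Selenop (0.944, 0.942 and 0.933). C5ar1 went with Itm2b, Tmem119 and Lag3 (0.943, 0.932 and 0.932). For Ccr2 they were Psma7, Pgk1 and Ifi204 (0.961, 0.954 and 0.951), a proteasome subunit, a glycolytic enzyme and an interferon-induced gene. Cxcr4 was closest to mt-Co1, Gm10073 and Rplp1 (0.946, 0.915 and 0.912) and Cx3cr1 to Tmem86a, Kctd12 and mt-Cytb (0.928, 0.926 and 0.912), and mt-Co1 and mt-Cytb are mitochondrial genes. Ccrl2 went with Cdkn1a, Rexo2 and Mkrn1 (0.959, 0.936 and 0.932), Csf2ra with Pnrc2, Nrros and Dusp11 (0.928, 0.910 and 0.907), and Ccr1 less closely with Dock10, Luc7l2 and Plekho2 (0.789, 0.785 and 0.695). Among the receptors themselves, Cx3cr1 and C3ar1 were nearest to Csf1r (0.906 and 0.883), C5ar1 to C3ar1 (0.808) and Ccr2 to Ccrl2 (0.714).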

How the data were processed

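Single-cell 3′ libraries of 2 DEP and 2 PBS mice were analysed. The authors processed the reads with Cell Ranger and STAR 2.6.1a (mm10, Ensembl annotation), removed cells by UMI number, gene number and mitochondrial share, and did not downsample when joining the mice. Raw UMI counts of 943 cells and 12596 genes were deposited as 1 table, with the mouse given by the cell names. A doublet search by the authors had found no suspicious cells. The authors' R was version 3.6. Genes were matched to symbols by their Ensembl identifiers (20 without a symbol stayed in the totals), and no row named anything but a gene.

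Cells in which 3 or more markers of 1 other class had a UMI were left out, UMIs were summed per mouse and bin, and sums were tested with edgeR 4.0.16 in R 4.3.3 (TMM, quasi-likelihood, Benjamini-Hochberg) for genes above 1 CPM in at least 2 libraries and with a UMI in at least 5% of cells, a filter taken from the study's methods. DEP was compared with PBS over the 4 libraries of a bin. CPM values in the text are UMIs scaled by library size, without TMM factors. The depth was 679800 to 1144961 UMIs per mouse, and 28229 to 915415 per mouse and bin, so that in the intermediate bin 10 to 19 cells per mouse set the precision. No pair of mice was alike within sampling noise (chi-square per degree of freedom 2.86 to 3.35). Intervals on shares are exact binomial ones at 95%. Shares of cells were compared over mice by the exact two-sided permutation test (6 arrangements) in Python 3.11.15 with scipy 1.17.1. The scripts were tested on simulated data.

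The receptors, the bins and the gene lists were chosen with earlier results of these data known. Named are the 9 receptors, the genes of 5 lists that were called in a comparison (the 4 with the smallest p where more were called), and the 3 genes most like each receptor. Other genes are named as markers or are said to have been chosen after their values were seen. A few genes that the rule names are not reported here. Alternatives were scaling by library size, DESeq2 1.42.0, a likelihood ratio test, no filter, all deposited cells, thinned cells, other limits of the bins, cells of at least 2000 UMIs, equal shares of the bins, no block and each mouse left out. Cells of at most 10000 UMIs, cells without dendritic markers and a robust quasi-likelihood fit were added after seeing the data.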

Additional observations from a re-analysis of the deposited data

Results flagged for a closer look

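For 3 genes of the lists the effect of DEP differed between the bins above 1% and under 0.3% in the test of the difference itself (edgeR's quasi-likelihood test, adjusted over all genes). For Ccl5, a ligand of CCR1, the effect above 1% minus that under 0.3% was -2.75 (adjusted p = 0.0155), with 400.5 and 212 CPM in DEP and 74.1 and 0 CPM in PBS mice under 0.3%, and 427 and 91.4 against 169 and 79.7 CPM above 1%. The call was lost when DEP mouse 15 (-2.14, adjusted p = 0.698), mouse 2 of the PBS group (-8.10, 0.0620) or mouse 3 of that group (-1.88, 0.634) was left out, and without cells carrying dendritic markers (-0.94, adjusted p = 1). For Ccl7, a ligand of CCR2, it was -2.43 (adjusted p = 0.00844), and -0.02 without DEP mouse 15, which alone held 555 CPM under 0.3%, and it was also lost with PBS mouse 2 (-2.25, adjusted p = 0.317) or 3 (-2.70, 0.152) left out. For Rgs1 it was -1.67 (adjusted p = 0.000792), with 541 and 682 against 55.6 and 394 CPM under 0.3% and 3669 and 3630.0 against 5154 and 3904 CPM above 1%. This call was lost with DEP mouse 15 (-1.49, adjusted p = 0.220) or mouse 2 of the PBS group (-0.75, 1) left out, and the difference was -4.11 without PBS mouse 3. None of the 3 was called with the robust fit, in which genes with a large spread keep it, or with DESeq2.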

How the results depend on the processing

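The 7 receptor calls between the outer bins kept their direction under all alternatives that were run, and Ccr2, Cx3cr1, C5ar1, C3ar1 and Csf1r kept their call too. Over all comparisons and alternatives, 668 receptor differences kept direction and side of the threshold, 28 lost and 12 gained a call and 37 changed sign. For genes of the lists, chosen because they were called, 706 stayed, 111 lost their call and 5 changed sign. The cause of the changes was not tested, except that thinned cells and fewer mice leave fewer counts.

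The number of genes called was the least stable value. Upon DEP over all cells (1 gene) it was 3 with DESeq2, 9 with the likelihood ratio test, 42 without a filter on low counts, 0 in thinned cells, 4 with cells of at most 10000 UMIs and 0 to 51 with each mouse left out. Under 0.3% (14 genes) it was 0 with DESeq2, 25 without a filter, 9 with all deposited cells, 0 in thinned cells, 33 with cells of 2000 UMIs or more, 9 without dendritic markers and 11 to 22 with a mouse left out (22 without DEP mouse 14 or PBS mouse 2). From 0.3 to 1% (15 genes) it was 0 with DESeq2, 4 in thinned cells, 0 with limits of 0.2 and 0.8%, 5 with limits of 0.5 and 1.5%, 0 without dendritic markers and 6 to 11 with a mouse left out (6 without DEP mouse 14, 8 without PBS mouse 3). Above 1% (0 genes) it was 2 by library size, 1 with DESeq2, 2 with the likelihood ratio test, 15 without a filter, 2 with limits of 0.5 and 1.5% and 1 to 4 with a mouse left out. For the DEP effect above 1% against under 0.3% (9 genes) it was 0 with DESeq2, 17 with all deposited cells, 0 in thinned cells, 16 with limits of 0.5 and 1.5%, 5 without dendritic markers and 2 to 8 with a mouse left out (5 without DEP mouse 15, 2 without PBS mouse 2). Between the outer bins (1027 genes) thinned cells gave 422 and a mouse left out 683 (DEP mouse 15) to 954. In the first step (355 genes) thinned cells gave 201, limits of 0.5 and 1.5% gave 848 and a mouse left out 185 to 343 (205 without DEP mouse 15, 185 without PBS mouse 3). In the second (186 genes) the count was 294 without a filter, 48 in thinned cells, 314 with limits of 0.2 and 0.8% and 66 with limits of 0.5 and 1.5%.

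Of the receptors called, the 4 of the first step became 2 in thinned cells and 1 to 4 with a mouse left out. The 3 of the second became 1 in thinned cells and 1 with limits of 0.5 and 1.5%. The 0 upon DEP from 0.3 to 1% became 0 to 2.

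No paired analysis was possible because DEP and PBS mice share no replicate number. Between bins the mouse entered as a block, and without this replicate block the second step had 115 calls in place of 186, and Ccr2 lost the call of both steps (adjusted p = 0.118 and 0.0567).

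Differences that were not called changed their sign most often. Between the outer bins Csf2ra (-0.09) was 0.14 without a filter, 0.18 with all deposited cells, 0.028 with limits of 0.5 and 1.5%, 0.037 without dendritic markers and -0.17 to 0.14 with a mouse left out, and Ccrl2 was 0.056 with all deposited cells. In the first step Ccr1 (-0.02) was 0.042 by library size, 0.16 with DESeq2, 0.23 with all deposited cells, 0.42 with limits of 0.5 and 1.5%, 0.13 with cells of 2000 UMIs or more and -0.46 to 0.37 with a mouse left out. In the second Ccrl2 (0.15) was -0.15 by library size, -0.14 with limits of 0.5 and 1.5% and -0.18 to 0.39 with a mouse left out. Cx3cr1 was -0.020 by library size, -0.11 in thinned cells and -0.19 with the higher limits, and Cxcr4 was 0.023 without a filter and 0.0048 in thinned cells. With those higher limits the called ligands Ccl3, Ccl4, Ccl7 and Ccl8 were at -0.18, -0.29, -0.018 and -0.24, and Ccl4 at -0.28 in thinned cells.

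Upon DEP over all cells C3ar1 was 0.093 and Ccr1 -0.23 in thinned cells, and with a mouse left out they ranged from -0.45 to 0.13 and from -0.0029 to 0.19, Ccrl2 from -0.48 to 0.080. With the same share of each bin Ccr2 was -0.030. Under 0.3% Ccr2 was -0.053 with all deposited cells and -0.24 to 0.71 with a mouse left out, and Cx3cr1 was 0.19 in thinned cells. Above 1% Ccr2 ranged from -0.17 to 0.060, and Cx3cr1 was 0.17 in thinned cells, 0.0099 with limits of 0.5 and 1.5% and -0.44 to 0.0030 with a mouse left out.

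In percentage points, the share of cells from 0.3 to 1% (0.348 higher upon DEP) was -8.77 with limits of 0.5 and 1.5%, -0.336 with all deposited cells and -0.875 to 1.57 with a mouse left out, and that above 1% (-8.59) was 0.331 with those limits. The share with a UMI, DEP minus PBS, was -10.7 unthinned and -3.24 with another seed for Cxcr4, 3.62 with another seed for Csf2ra, 1.41 with another seed for C5ar1, -1.08 unthinned and -0.414 with all deposited cells for C3ar1 and 0.448 unthinned for Csf1r. With another seed it was 7.08 for Ccr2 and -7.53 for Ccrl2. With a mouse left out it ranged from -1.14 to 8.94 for Ccr2, -5.88 to 3.28 for Cx3cr1 and -5.09 to 2.16 for Ccrl2. The range was -2.82 to 1.42 for C5ar1, -0.790 to 2.18 for C3ar1 and -6.01 to 0.284 for Csf1r.

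With 4 mice and 10 to 19 cells per mouse from 0.3 to 1%, differences in that bin rest on few UMIs, and 2 mice per group limit every comparison of DEP with PBS.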
